A study of Rattus norvegicus with 6 samples.

Results

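The cluster of miR-183, miR-96 and miR-182 is a group of 3 neighbouring miRNA genes, and its products were followed here in small RNA libraries of rat serum exosomes, membrane vesicles shed by cells into the blood. The members were chosen by name, as the rows listed under rno-miR-183-5p, rno-miR-183-3p, rno-miR-96-5p and rno-miR-182, where the prefix stands for the rat and is left out from here on. All 4 were listed among 867 miRNA sequences, and all 4 had at least 1 read. NXT-Exo came from the serum of male Sprague-Dawley rats, aged 6 to 8 weeks and on a normal diet, that received Naoxintong Capsule (NXT), a traditional Chinese medicine, orally at 1000 mg/kg/d. Ctl-Exo came from rats of the same kind that received saline at 5 mL/kg/d. The comparison used 5 NXT-Exo libraries (replicates 1 to 5) and 1 Ctl-Exo library (replicate 5), so the Ctl-Exo group had no spread and no p-value was calculated. The table also has columns headed Ctl-Exo 1 to 4, which match none of the samples described here and were not used. Titles give 7 days of dosing for every library, as do the authors' methods for both groups. The treatment field instead runs from 7 days in NXT-Exo 1, by 1 day per replicate, to 11 days in NXT-Exo 5. It reads 11 days in Ctl-Exo 5. The sources do not say whether a library held the exosomes of a single rat or of a pool, so the spread between libraries may be partly technical.

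The miRNAs of this cluster are made from a shared primary transcript and are best known from sensory organs such as the retina and the inner ear, where changes in the seed of miR-96 cause hearing loss. A miRNA recognises its target mRNAs mainly through its seed, the bases 2 to 8 counted from the 5′ end. The 3 main products of the cluster have closely related seeds, which is why they are often described as partners with overlapping targets. To show this relation, the listed sequences are printed with the seed in capitals and U in place of T.
miR-183-5p: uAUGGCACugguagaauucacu
miR-96-5p: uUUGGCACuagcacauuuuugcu
miR-182: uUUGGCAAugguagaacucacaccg
miR-183-3p: uGAAUUACcgaagggccauaa
All 4 sequences were identical to the mature miRNAs of the same names in RefSeq (assembly GRCr8). With positions counted from the 5′ end, the seeds of miR-96-5p and miR-182 differed by C8A, those of miR-96-5p and miR-183-5p by U2A, and those of miR-182 and miR-183-5p by U2A and A8C. Outside the seed the relation was a different one. When set side by side from the first base without gaps, miR-182 and miR-183-5p were identical at 18 of 22 positions, miR-96-5p and miR-183-5p at 13 of 22, and miR-96-5p and miR-182 at 12 of 23. miR-183-3p comes from the other arm of the miR-183 hairpin and has an unrelated seed.

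In GRCr8 the 3 hairpins lie on the minus strand of chromosome 4, Mir182 at chr4:59752246-59752307, Mir96 at chr4:59755841-59755946 and Mir183 at chr4:59756044-59756153. These positions are from the RefSeq assembly and not from Rnor_6.0, the build named in the submitters' processing notes. Mir96 and Mir183 are 97 bases apart and Mir182 is 3533 bases from Mir96, between the protein-coding genes Nrf1 and Ube2h. On the opposite strand the hairpin of Mir3553 overlaps that of Mir183, and its product was not analysed here. The Mir183 hairpin is printed because both of its arms were measured, with miR-183-5p (first) and miR-183-3p (second) in capitals.
Mir183: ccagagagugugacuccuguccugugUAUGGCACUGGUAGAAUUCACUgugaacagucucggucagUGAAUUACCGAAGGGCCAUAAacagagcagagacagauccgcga

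Levels are given in CPM, read counts relative to the size of the library, after scaling with edgeR's TMM factors. The listed reads summed to between 1168686 and 3781718 in NXT-Exo and to 1890463 in Ctl-Exo 5, and no pair of libraries was alike within counting noise. In Ctl-Exo 5 a single read was worth 0.544 CPM, and in NXT-Exo between 0.261 and 0.782 CPM. NXT-Exo 4 had the fewest reads. Because a read covers a whole miRNA, levels of different miRNAs were compared per read and not per length. The 95% intervals below are exact Poisson intervals of the reads and cover counting error only.

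miR-182 was the most abundant product of the cluster and was higher in all 5 NXT-Exo libraries than in Ctl-Exo 5. Its level was 304, 364, 315, 360 and 332 CPM in NXT-Exo 1 to 5, from 461 to 1273 reads per library, and 234 CPM in Ctl-Exo 5, from 429 reads. The groups did not overlap, and the NXT-Exo libraries lay close together, with the highest 1.20 times the lowest. The NXT-Exo mean was 335 ± 26.7 CPM (SD, n = 5), which is 1.43 times Ctl-Exo 5. On the log2(CPM + 1) scale the difference of 0.52 exceeded the SD among the NXT-Exo libraries, which was 0.11. The interval of the lowest NXT-Exo library, NXT-Exo 1, was 285 to 324 CPM, and that of Ctl-Exo 5 was 212 to 257 CPM.

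miR-183-5p, the main product of the miR-183 hairpin, was next in level and was also higher in all 5 NXT-Exo libraries. It was 182.03, 227, 184, 263 and 179 CPM in NXT-Exo 1 to 5 and 146 CPM in Ctl-Exo 5. NXT-Exo 4 and NXT-Exo 2 were the highest, and the other 3 NXT-Exo libraries lay within 6 CPM of each other. The NXT-Exo mean was 207 ± 37.2 CPM (SD, n = 5), which is 1.42 times Ctl-Exo 5, and the log2 difference, 0.50, was above the SD, 0.25. The gap to the lowest NXT-Exo library was small. The interval of NXT-Exo 5 was 165.5 to 192.6 CPM and that of Ctl-Exo 5 was 129.0 to 164.5 CPM.

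miR-96-5p, whose gene lies between the other members, was far lower, and its groups overlapped. It was 10.7, 8.73, 6.29, 21.9 and 6.00 CPM in NXT-Exo 1 to 5, from 14 to 32 reads per library, and 9.80 CPM in Ctl-Exo 5, from 18 reads. NXT-Exo 4 stood above the other libraries, and only NXT-Exo 1 and NXT-Exo 4 were above Ctl-Exo 5. The NXT-Exo mean was 10.7 ± 6.53 CPM (SD, n = 5), and its SD on the log2 scale, 0.69, was well above the log2 difference of 0.12. Without NXT-Exo 4 the difference was -0.27. The interval of NXT-Exo 4 (14.5 to 31.6 CPM) did not overlap that of NXT-Exo 5 (3.80 to 9.00 CPM), so the spread went beyond counting error. With few reads, this spread and 1 Ctl-Exo library, a difference in miR-96-5p was not detectable.

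miR-183-3p, from the second arm of the miR-183 hairpin, was close to the detection floor of 3 reads. It had 2, 4, 0, 3 and 0 reads in NXT-Exo 1 to 5 and 0 reads in Ctl-Exo 5, where 3 reads would be 1.63 CPM. Its NXT-Exo mean of 0.843 CPM was below that floor, and no fold was calculated.

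**Figure D1:**
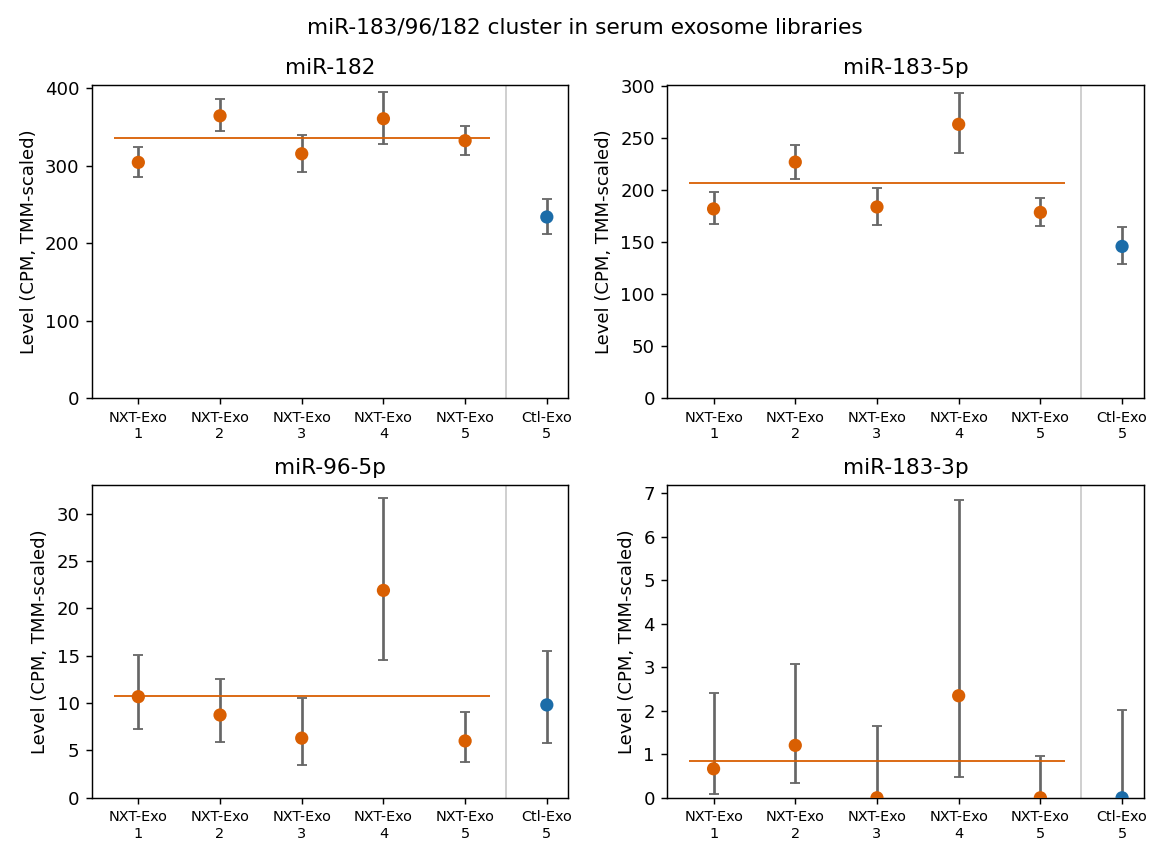
Levels of the 4 cluster members in CPM (vertical axes, linear and starting at 0, with a different scale in each panel) in each NXT-Exo library (orange) and in Ctl-Exo 5 (blue). Bars are exact 95% Poisson intervals of the reads and orange lines are NXT-Exo means. For miR-182 and miR-183-5p all 5 NXT-Exo libraries lie above Ctl-Exo 5, whereas for miR-96-5p only 2 do.

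Added together, the 4 members took 0.0378% of the listed reads in Ctl-Exo 5 and from 0.0471% to 0.0709% in the NXT-Exo libraries. The summed level was 497, 601, 505, 648 and 517 CPM in NXT-Exo 1 to 5 and 389 CPM in Ctl-Exo 5, and all 5 NXT-Exo libraries were higher. The NXT-Exo mean was 554 ± 67.1 CPM (SD, n = 5), and the log2 difference was 0.51 against an SD of 0.17. Among the listed sequences of a library, ordered by reads, miR-182 took place 102 to 110 in NXT-Exo and place 124 in Ctl-Exo 5. miR-183-5p took place 123 to 139 and 147, and miR-96-5p place 276 to 419 and 351.

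These differences were read against all miRNAs. Of the 865 miRNAs with reads, 11.4% were at least 2-fold apart with Ctl-Exo 5 outside the NXT-Exo range, and 5.32% were at least 2-fold higher in NXT-Exo in this way, or 4.71% of the 467 miRNAs with 10 or more reads on average. None of the 4 members was among them. At any fold, Ctl-Exo 5 was the lowest of the 6 libraries for 15.0% of the 865 miRNAs and for 21.6% of the 467. It was so for 2 of the 4 members, miR-182 and miR-183-5p, which come from the same cluster and are not independent of each other. Among the 467 miRNAs, 87 had a log2 difference at least as high as that of miR-182 and 93 one at least as high as that of miR-183-5p, counting the miRNA itself. The median log2 difference was 0.03 over the 467 miRNAs and -0.09 over the 59 of them within 2-fold of the mean level of miR-182. Without regard to sign, the median size of the difference was 0.28 over the 467 and 0.19 over the 59. In either direction, Ctl-Exo 5 lay outside the NXT-Exo range for 37.5% of the 467. In exosomes of whole serum, more vesicles that carry a miRNA and more copies per vesicle cannot be told apart.

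**Figure D2:**
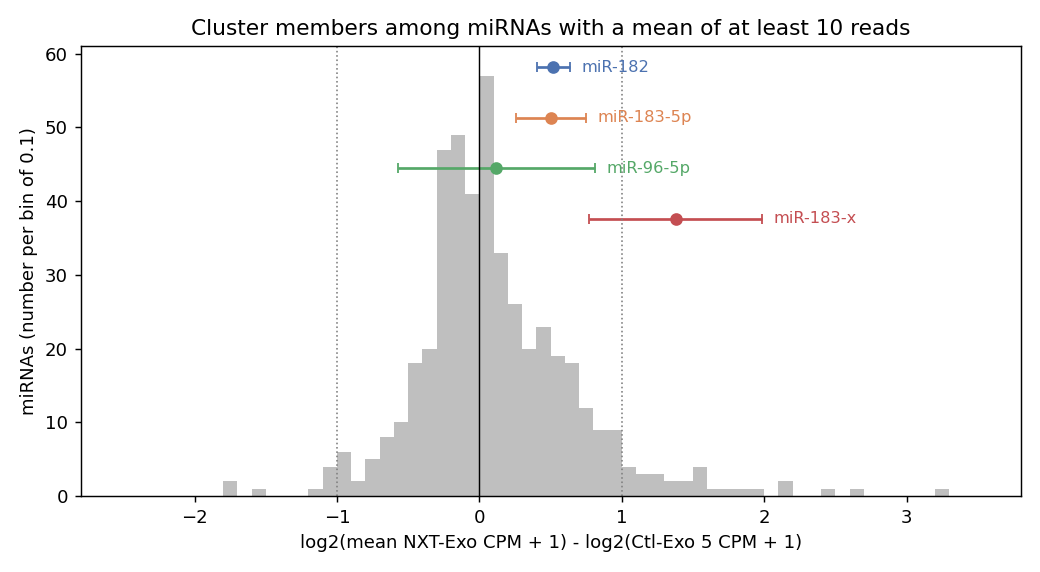
Log2 difference of the NXT-Exo mean from Ctl-Exo 5 (horizontal axis) for the 467 miRNAs with 10 or more reads on average (grey, number per bin of 0.1). Points are miR-182, miR-183-5p, miR-96-5p and miR-183-x, and miR-183-3p, with 1.5 reads on average, is not shown. Bars are 1 SD of the 5 NXT-Exo libraries on either side, heights of the points carry no value, and dotted lines mark a 2-fold difference. miR-182 (0.52) and miR-183-5p (0.50) lie inside the dotted lines and miR-183-x (1.38) lies outside.

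The order of the levels was the same in all 6 libraries, with miR-182 first, followed by miR-183-5p, miR-96-5p and miR-183-3p. The neighbouring ratios stayed on one side of 1 in every library. There were 1.37 to 1.86 reads of miR-182 for each read of miR-183-5p in NXT-Exo against 1.60 in Ctl-Exo 5, with an NXT-Exo mean of 1.64 ± 0.18 (SD, n = 5). The distance between this mean and Ctl-Exo 5 was smaller than the SD, and Ctl-Exo 5 lay within the NXT-Exo range. Reads of miR-183-5p were 12.0 to 29.8 times those of miR-96-5p in NXT-Exo and 14.9 times in Ctl-Exo 5. How well each sequence was captured in the libraries was not tested, so the order is that of the reads.

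Of the cluster reads, miR-182 made up 60.8% ± 3.22 (SD, n = 5) in NXT-Exo against 60.0% in Ctl-Exo 5, and miR-183-5p 37.2% ± 2.24 (SD, n = 5) and 37.5%. miR-96-5p made up 1.16% to 3.38% in NXT-Exo against 2.52% in Ctl-Exo 5. NXT-Exo 4 had the lowest share of miR-182 (55.6%) and NXT-Exo 5 the highest (64.3%). Of the reads of miR-182 and miR-183-5p alone, miR-182 took 57.8% in NXT-Exo 4 (95% Wilson interval 54.3% to 61.2%) and 65.0% in NXT-Exo 5 (62.9% to 67.1%). These intervals did not overlap, so libraries of the same group differed by more than counting error.

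**Figure D3:**
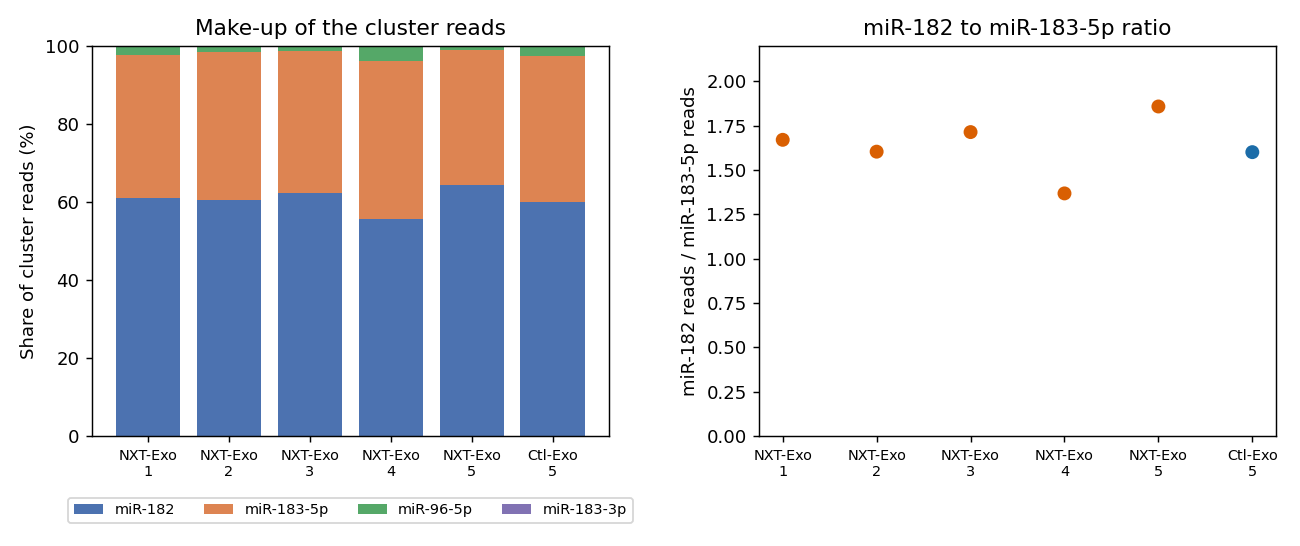
Left, share of each member in the reads of the 4 members (percent) in each library, where miR-183-3p is too small to be seen. Right, reads of miR-182 divided by reads of miR-183-5p in NXT-Exo (orange) and Ctl-Exo 5 (blue). miR-182 makes up 55.6% to 64.3% in NXT-Exo against 60.0% in Ctl-Exo 5.

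The arms of the miR-183 hairpin were very unequal. Over the NXT-Exo libraries, 9 reads of miR-183-3p stood against 2731 of miR-183-5p, so the second arm took 0.328% of the reads of both (95% Wilson interval 0.173% to 0.623%). In Ctl-Exo 5, with 268 reads of miR-183-5p, a count of 0 allows up to 1.12 reads of miR-183-3p per 100 of miR-183-5p. Among 115 rat precursors with both arms listed and at least 60 reads in all, miR-183 had the 25th smallest share of the minor arm.

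The levels of miR-182 and miR-183-5p varied together over the 6 libraries. On the log2 scale Pearson's r was 0.87 and Spearman's rho 0.77 (n = 6), and r was 0.85 without the 2 libraries farthest from the median of miR-182. For miR-182 and miR-96-5p, r was 0.17 and rho -0.09, and for miR-183-5p and miR-96-5p they were 0.60 and 0.37. The points share library and scaling, include both groups and rest on few reads for miR-96-5p, so these values are descriptions.

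Other listed names carry the number of a member or share a seed with a member. Those with the suffix -x or -y were related to members by name and sequence only, and their gene of origin was not tested. Among them, miR-183-x is listed without the rat prefix and has the seed of miR-183-5p. It differs from miR-183-5p by U1A and U22G and by 1 more base at the 3′ end. The Mir183 hairpin printed above has U at both of these positions. miR-183-x had 201, 140, 52, 53 and 96 reads in NXT-Exo 1 to 5, at 67.0, 42.2, 23.4, 41.4 and 25.0 CPM, and 27 reads or 14.7 CPM in Ctl-Exo 5. All 5 NXT-Exo libraries were higher, NXT-Exo 1 by the most. The Poisson interval of Ctl-Exo 5, 9.7 to 21.4 CPM, overlapped those of NXT-Exo 3 (17.5 to 30.7 CPM) and NXT-Exo 5 (20.3 to 30.6 CPM). The NXT-Exo mean was 39.8 ± 17.6 CPM (SD, n = 5), which is 2.71 times Ctl-Exo 5, and the log2 difference, 1.38, was above the SD, 0.61. It was thus within the 5.32% of miRNAs at least 2-fold higher, and remained above 2-fold without NXT-Exo 1 (log2 difference 1.11). Reads of near-identical sequences may be divided between miR-183-5p and miR-183-x, and how the authors assigned them is not given in the sources used here. With the reads of both names added, the level was 247 ± 42.7 CPM (SD, n = 5) in NXT-Exo against 161 CPM in Ctl-Exo 5, a log2 difference of 0.62.

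miR-182-x and miR-96-x each had 6 reads in NXT-Exo 2 and 0 reads in the other libraries, beside 1209 reads of miR-182 and 29 reads of miR-96-5p in NXT-Exo 2. miR-182-x differs from miR-182 by C23G and C24A. miR-96-x starts 1 base later than miR-96-5p and differs from it by A10G and C22A. miR-182-y had 4 reads in NXT-Exo 5, 3 reads in Ctl-Exo 5 and 0 in the other libraries, so both groups were near the floor.

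Reads with the seed of miR-96-5p came mostly from another miRNA, miR-1271-x. Its listed sequence is printed because it shares this seed while the rest differs.
miR-96-5p: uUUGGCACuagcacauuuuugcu
miR-1271-x: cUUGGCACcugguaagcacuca
miR-1271-x and miR-96-5p were identical at 10 of 22 positions, and these were the only names among the 867 with this seed. The level of miR-1271-x was 440, 510, 392, 439 and 367 CPM in NXT-Exo 1 to 5 and 501 CPM in Ctl-Exo 5. NXT-Exo 2 was above Ctl-Exo 5 (0 of 5 libraries were above it with factors from miRNAs with a mean of 10 or more reads) and the other 4 were below it, with an NXT-Exo level of 430 ± 54.7 CPM (SD, n = 5). The log2 difference was -0.22, against an SD of 0.18. miR-96-5p gave 1.58% to 4.75% of the reads with this seed in NXT-Exo against 1.92% in Ctl-Exo 5. The summed level of the seed was 440 ± 56.8 CPM (SD, n = 5) in NXT-Exo against 511 CPM in Ctl-Exo 5, within the range of the NXT-Exo libraries (373 to 519 CPM). By contrast, miR-182 gave 99.5% to 100% of the reads with its own seed in every library. The seed of miR-183-5p was shared with miR-183-x and with miR-228-x, which had 10 reads in NXT-Exo 1, 11 in NXT-Exo 3 and 0 in the others. No other listed name had the seed of miR-183-3p.

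**Figure D4:**
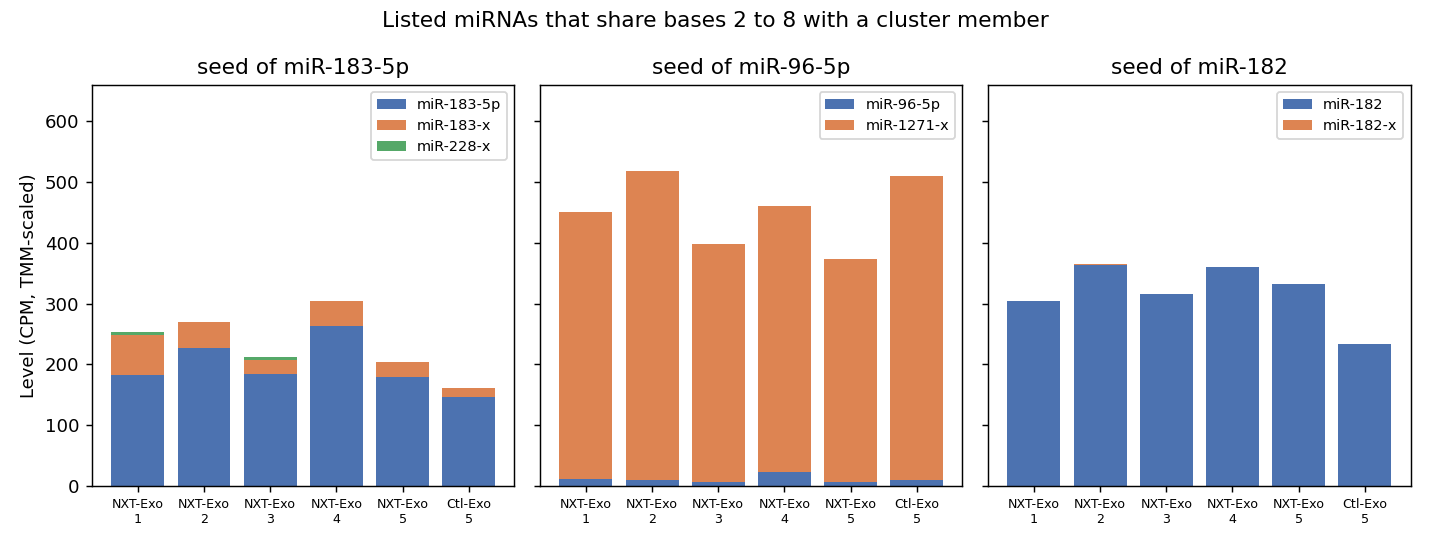
Levels in CPM (vertical axis, linear from 0) of the listed miRNAs with the seed of miR-183-5p, miR-96-5p or miR-182, stacked by name, in the 5 NXT-Exo libraries and Ctl-Exo 5. The bars of the miR-96-5p seed consist almost wholly of miR-1271-x, and miR-96-5p gives 1.58% to 4.75% of them in NXT-Exo.

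The profile of the summed cluster across the 6 libraries was compared with those of the other 464 miRNAs with 10 or more reads on average, each centred on its mean log2(CPM + 1). The nearest was miR-192-5p, a miRNA of liver and gut, at a root mean square distance of 0.06 on the log2 scale, where the median distance was 0.39. It was followed by miR-127-3p, an imprinted miRNA of the Dlk1-Dio3 region, miR-877-y, miR-574-y and miR-140-3p, which is known from cartilage, at 0.09, 0.09, 0.09 and 0.10. The cluster's own profile had a root mean square of 0.23. These 5 miRNAs were chosen for nearness to the cluster over the same 6 libraries, so a shared shape follows largely from the choice. This holds for the low level in Ctl-Exo 5, which was the lowest library for all 5, as for 21.6% of the 467 miRNAs. miR-192-5p was 6952, 8236, 7165, 8523 and 6539 CPM in NXT-Exo 1 to 5 and 5393 CPM in Ctl-Exo 5, with NXT-Exo 4 and NXT-Exo 2 highest, as for the cluster.

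**Figure D5:**
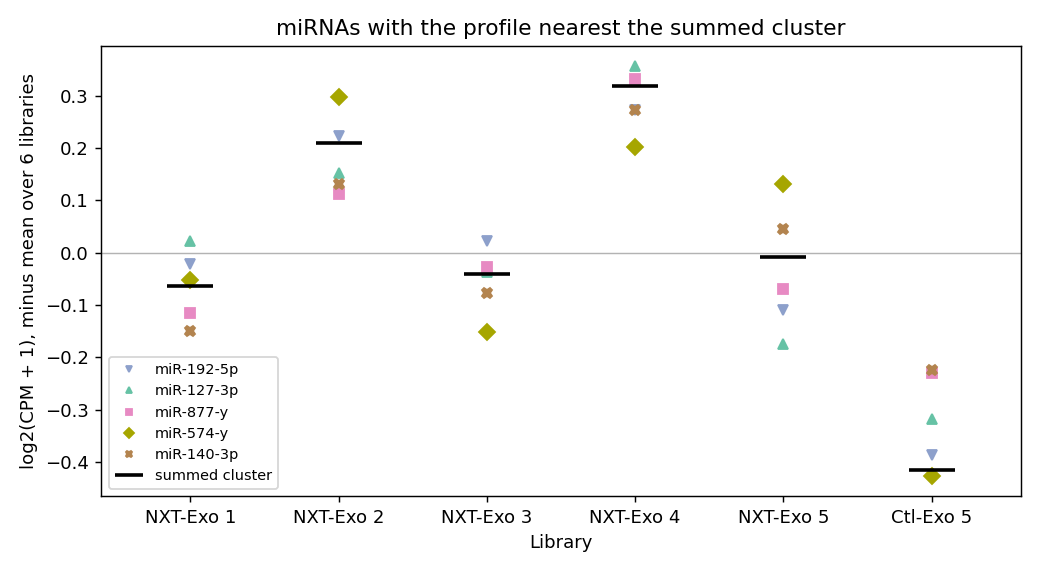
Log2(CPM + 1) minus its mean over the 6 libraries (vertical axis) for the summed cluster (black bars) and the 5 miRNAs with the nearest profile (coloured symbols) in each library. All 6 are lowest in Ctl-Exo 5 and above their mean in NXT-Exo 2 and NXT-Exo 4. The 5 miRNAs were chosen for this likeness over the same 6 libraries.

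Lists of miRNAs typical of the cells that feed serum were set beside the cluster. The red blood cell list (miR-486, miR-451-5p, miR-144-3p and miR-144-5p) had reads for 4 of 4 miRNAs in all libraries, and its summed level was 157715 to 260257 CPM in NXT-Exo against 210386 CPM in Ctl-Exo 5. None of the 4 put Ctl-Exo 5 outside the NXT-Exo range. The ratio of miR-451-5p to miR-23a-3p, which rises when red blood cells break, was -4.76, -4.02, -3.68, -3.25 and -4.06 on the log2 scale in NXT-Exo 1 to 5 and -4.11 in Ctl-Exo 5, within the range. Over the 6 libraries this ratio moved with the summed cluster with r 0.50 and rho 0.77 (n = 6), and r was 0.24 without the 2 libraries farthest from its median. NXT-Exo 4 was highest in both. For the summed red blood cell list, which was mostly miR-486, r was 0.10 and rho 0.14 (n = 6). Singly, r was 0.09 for miR-486, 0.52 for miR-451-5p, 0.20 for miR-144-3p and -0.10 for miR-144-5p. These values share library and scaling and are descriptions, and the part of red blood cell breakage in the cluster levels was not tested. The 5 miRNAs of white blood cells and platelets were lower in sum in NXT-Exo (21635 to 25494 CPM) than in Ctl-Exo 5 (26558 CPM). Of them, 2, miR-223-3p and miR-142-5p, lay below Ctl-Exo 5 in all 5 libraries, as did 15.8% of the 467 miRNAs. For miR-142-3p (log2 difference -0.20), miR-150-5p (-0.06) and miR-126a-3p (0.06) Ctl-Exo 5 was within the range, and miR-126a-3p went the other way. When scaled to the listed total, and in the deposited TPM, 1 NXT-Exo library was above Ctl-Exo 5 in the sum of this list. In both of these, 1 of the 5 miRNAs was outside the range. In 3 lists the summed level was higher in all 5 NXT-Exo libraries, as for miR-182 and miR-183-5p. The 5 epithelial miRNAs of the miR-200 family summed to 262 to 384 CPM against 259 CPM, and 3 of them, miR-200a-3p, miR-200c-3p and miR-141-3p, put Ctl-Exo 5 below the range, against 21.6% of the 467 miRNAs. Of the other 2, miR-200b-3p had a log2 difference of 0.13, and miR-429 went the other way, at 12.0 ± 4.61 CPM (SD, n = 5) against 16.9 CPM, a log2 difference of -0.45 with Ctl-Exo 5 within the range. When scaled to the listed total, and in the deposited TPM, 2 of the 5 put Ctl-Exo 5 below the range. The epithelial sum was higher in 4 of 5 NXT-Exo libraries when scaled to the listed total, with median-of-ratios factors and in the deposited TPM. The 3 miRNAs of the hepatocyte list summed to 10925 to 24381 CPM against 7633 CPM. Of them, 2, miR-122-5p and miR-192-5p, were above Ctl-Exo 5 in all NXT-Exo libraries, against 21.6% of the 467 miRNAs. The list is not particular to hepatocytes, since miR-192-5p is a miRNA of gut as well. miR-122-5p was uneven, from 3294 to 17384 CPM in NXT-Exo. For miR-194-5p, at 46.7 ± 9.97 CPM (SD, n = 5) against 44.1 CPM, Ctl-Exo 5 was within the range. The 4 endocrine miRNAs summed to 783 to 963 CPM against 579 CPM. This rested on miR-375-3p, a miRNA of pancreatic islets, at 824 ± 66.5 CPM (SD, n = 5) against 516 CPM. It was the 1 of the 4 that put Ctl-Exo 5 below the range, against 21.6% of the 467 miRNAs. For miR-7a-5p (log2 difference 0.06) and miR-7a-1-3p (-0.19) Ctl-Exo 5 was within the range, and miR-7b had 0 reads in Ctl-Exo 5. The median log2 difference was 0.04 for the red blood cell list, -0.20 for white blood cells and platelets, 0.29 for the epithelial, 0.47 for the hepatocyte and 0.29 for the endocrine list, and 0.03 over the 467 miRNAs. The hepatocyte median was the value of miR-192-5p (0.47). The endocrine median fell between miR-7a-5p (0.06) and miR-7b (0.52). As the NXT-Exo mean of miR-7b, 0.435 CPM, was below the floor of 1.63 CPM in Ctl-Exo 5, this median is not a reliable measure of that list. The part of these cell types in the levels of the cluster was not tested.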

How the data were processed

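Exosomes were isolated from serum by ultracentrifugation, and small RNA libraries were prepared with a TruSeq kit and sequenced on an Illumina HiSeq instrument. With ACGT101-miR the authors filtered out adapter dimers, junk and other RNA classes, and they deposited raw counts per listed miRNA sequence. The submitters' processing notes name the build Rnor_6.0, and the aligner is not given in the sources used here. The authors also deposited TPM values, which are counts multiplied by a constant per library, with 0 reads written as 0.01. Another 8 columns, headed as counts and TPM of Ctl-Exo 1 to 4, match none of the samples described and were not used here.

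The counts were scaled with edgeR 4.0.16 (TMM, R 4.3.3) over the 865 miRNAs with reads, and Ctl-Exo 5 was subtracted from the NXT-Exo mean on the log2(CPM + 1) scale. A miRNA was called apart when it differed at least 2-fold with Ctl-Exo 5 outside the NXT-Exo range. With 1 Ctl-Exo library no test was made. Libraries differed from each other by a chi-square per degree of freedom of 38.1 to 272.3. Intervals, ratios and figures were made with Python 3.11.15, numpy 2.4.6, pandas 2.3.3, scipy 1.17.1 and matplotlib 3.10.9. The comparison was also run on simulated counts. That run held no change of the size seen for miR-182 and miR-183-5p, and no result here rests on it. Besides the members, the text names other listed names with a member's number, miRNAs sharing a member's seed, the 5 nearest profiles and the cell lists. The members and lists were chosen with earlier results of these data known. Alternatives were other pseudocounts (0.1 and 10), the listed total as library size, DESeq2 1.42.0 factors, deposited TPM, the median, the mean of log2 values, a minimum mean of 10 reads, no range condition, adding other names, summed reads, and leaving out each NXT-Exo library.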

Additional observations from a re-analysis of the deposited data

Results flagged for a closer look

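Of 15 groups of 5 NXT-Exo values, 3 had reads in a single library, so that this library stands apart by construction. Among the other 12, 1 held a library far from the others by Dixon's criterion (gap over range above 0.71), where chance gives about 1 in 20. The share of miR-183-x in the reads of both miR-183 5p names was 26.9% in NXT-Exo 1 (95% Wilson interval 23.9% to 30.2%) against 11.3% to 15.7% in NXT-Exo 2 to 5, so the gap was 0.720 of the range, and it was 9.15% in Ctl-Exo 5. miR-96-x was 1.81 CPM in NXT-Exo 2, from 6 reads, and had 0 reads elsewhere. miR-182-x was also 1.81 CPM in NXT-Exo 2, from 6 reads, with 0 reads elsewhere. miR-182-y was 1.04 CPM in NXT-Exo 5, from 4 reads, and had 0 reads in the other NXT-Exo libraries. With at most 6 reads, these last 3 names are close to the floor of 3 reads.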

How the results depend on the processing

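The log2 differences of miR-182, miR-183-5p and the summed cluster kept their sign and moved by less than the SD in 13 of 13 alternatives each. Leaving out each NXT-Exo library gave 0.49 to 0.55, 0.40 to 0.55 and 0.44 to 0.54, and the other alternatives 0.50 to 0.57, 0.33 to 0.56 and 0.41 to 0.56. Under each scaling, and in the deposited TPM, miR-182 and miR-183-5p were higher in 5 of 5 NXT-Exo libraries. With Ctl-Exo 5 below all of them, leaving out 1 NXT-Exo library could hardly change the sign. Every alternative used the same Ctl-Exo 5 library, so the spread of the Ctl-Exo group was not covered. The log2 difference of miR-96-5p (0.12) was -0.15 with the NXT-Exo median, -0.029 with the mean of log2 values, and -0.27 to 0.26 without each library, being lowest when NXT-Exo replicate 4 was left out. Ctl-Exo 5 had 0 reads of miR-183-3p and the NXT-Exo mean was below the floor of Ctl-Exo 5, so no difference was calculated, and its arm ratio was taken from summed reads because 2 NXT-Exo libraries had 0 reads. The count of miRNAs called 2-fold apart (99) was 4 with a pseudocount of 10, 31 with a minimum mean of 10 reads, 166 with no condition on the range and 101 to 121 without each library, with 0 members among them in every setting. Reads of miR-183-x, miR-96-x and miR-182-x were also added to the members they resemble in sequence. This lowered the share of miR-182 from 60.8% to 56.7% and its ratio to miR-183-5p from 1.64 to 1.38, since miR-183-x adds to miR-183-5p. The ranges without each library were 59.9% to 62.1% and 1.59 to 1.71. For miR-183-x, alternatives were chosen after its values were seen, and its log2 difference was 1.01 with a pseudocount of 10. No paired analysis was possible because replicate 5 is the sole number present in both groups. The few reads of miR-96-5p and miR-183-3p limit any comparison of them.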
